A study of Homo sapiens with 7 samples.

Results

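The fibroblast growth factor (FGF) genes described here are FGF7 and 9 relatives: the secreted ligands FGF1, FGF2 and FGF9, the intracellular factors FGF12 and FGF13, and the receptors FGFR1 to FGFR4. These 10 genes were chosen by name among 60234 rows of an expression table, and FGF7 was picked because its level was higher after treatment. RNA was taken from cardiomyocytes grown from WTC-11, an established human induced pluripotent stem cell line, after 35 days of maturation. All cultures had received an ASO (antisense oligonucleotide, a short synthetic strand that base-pairs with its target RNA), which was left to enter the cells passively at 2 uM for 96 h. The ASO was scrambled in 3 libraries and directed against MYH7B in 4, and all cells came from the same stem cell line. No label says whether the libraries of a group came from separate cultures, so p-values measure the spread between these samples, which may be technical.

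Levels are TPM, which express each gene as a share of all RNA counted in that library. TPM are scaled by transcript length and can be compared between genes. TPM keeps no record of depth, since each column sums to 1000000, and the spread between replicates is the only measure of error. The column of MYH7B ASO replicate 1 was out of row order, with values in its first 58721 positions. It could be read only after being reordered to the sorted gene identifiers of GENCODE 29, which raised its median correlation with the other libraries across genes from 0.408 to 0.955. Mitochondrially encoded genes took 17.2% of its TPM, and in the 6 remaining libraries 27.4% to 33.6%. Comparisons therefore used scrambled ASO replicates 1 to 3 and MYH7B ASO replicates 2 to 4, and the reordered replicate 1 is given beside them. MYH7B, the ASO target, had 23.0, 36.5 and 25.1 TPM in the scrambled libraries and 9.30, 5.65 and 6.31 TPM in MYH7B ASO replicates 2 to 4. Its log2 fold change was -1.85 (limma adjusted p = 0.0109), its reordered replicate 1 level was 1.29 TPM, and the call was lost without MYH7B ASO replicate 4 (limma adjusted p = 0.0618). Sums of the 10 cardiomyocyte markers were 10763.5 to 11868 TPM in the scrambled group. They were 8997 to 11253 TPM in MYH7B ASO replicates 2 to 4 and 8131 TPM in the reordered replicate 1. As a sum, markers of the labelled cell type were therefore abundant in all 7 libraries. The markers did not move as one. ACTN2, RYR2, TNNI3, MYL7 and PLN were each lower in MYH7B ASO replicates 2 to 4 than in every scrambled library. TNNI1 was higher, and the groups overlapped for TNNT2, MYH6, MYH7 and NKX2-5. RYR2 averaged 34.1 TPM against 16.3 TPM and MYH7 averaged 962 TPM against 394 TPM in the same comparison. None of the 10 was called, where 1.66% of all tested genes were. Of all tested genes, 14.1% were lower and 7.11% higher without overlap.

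Secreted FGFs bind receptor tyrosine kinases at the cell surface together with heparan sulfate chains, and the activated receptors signal through RAS and MAP kinases. FGF7, also called keratinocyte growth factor, is usually made by mesenchymal cells and acts on a splice form of FGFR2 that is typical of epithelia. The intracellular FGF homologous factors are not secreted and bind voltage-gated sodium channels, which shape the action potential of heart muscle cells.

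The identity of the FGF7 signal needs its sequence, because FGF7 has near-identical partial copies elsewhere in the genome. FGF7 (ENSG00000140285.10) lies on the plus strand of chromosome 15, at positions 49423096 to 49488775 in GENCODE 29 on GRCh38. Its transcript FGF7-201 is 5467 bases long, with 4 exons and a coding part of 585 bases. A stretch of 120 coding bases, positions 287 to 406 of the coding part, crosses an exon junction within chr15:49483151-49484325 and is shown 5′ to 3′ with the matching bases of the only 2 pseudogenes that had any TPM. Capitals mark bases that differ between FGF7 and a pseudogene, and all 3 sequences are from the GENCODE 29 transcripts.
FGF7-201: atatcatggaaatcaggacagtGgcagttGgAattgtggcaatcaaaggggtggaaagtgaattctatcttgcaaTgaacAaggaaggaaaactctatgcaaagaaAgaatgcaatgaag
FGF7P3-202: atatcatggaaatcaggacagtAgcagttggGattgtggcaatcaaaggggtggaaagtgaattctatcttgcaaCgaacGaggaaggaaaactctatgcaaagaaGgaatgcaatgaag
FGF7P6-201: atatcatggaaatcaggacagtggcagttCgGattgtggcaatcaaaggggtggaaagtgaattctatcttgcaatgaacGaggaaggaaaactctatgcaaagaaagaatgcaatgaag
Counted from the first base shown, with the FGF7 base first, FGF7P3 carries G23A, A32G, T76C, A81G and A107G, and FGF7P6 carries G30C, A32G and A81G. Over their longest alignments FGF7P3-202 was 97.3% identical to FGF7-201 across 1298 bases and FGF7P6-201 was 97.9% identical across 1237 bases. In both, the longest identical run was 141 bases. A read that falls in such a run cannot be assigned to one gene by its sequence.

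FGF7 was higher in every MYH7B ASO library than in every scrambled library. The scrambled ASO replicates 1 to 3 had 6.29, 5.78 and 2.87 TPM. In MYH7B ASO replicates 2 to 4 it was 19.2, 23.3 and 23.8 TPM, and 17.7 TPM in the reordered replicate 1. The lowest treated value was 17.7 TPM and the highest control value 6.29 TPM, a gap that the choice of FGF7 for its higher level favours. Controls averaged 4.98 ± 1.84 TPM (SD, n = 3) while treated libraries averaged 22.1 ± 2.50 TPM (SD, n = 3). The difference was 2.00 on the log2(TPM + 1) scale and 1.92 with replicate 1 included. In the authors' deposited table the shrunken log2 fold change of FGF7 was 1.56. No test is given for FGF7, because it was picked for this difference.

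**Figure D1:**
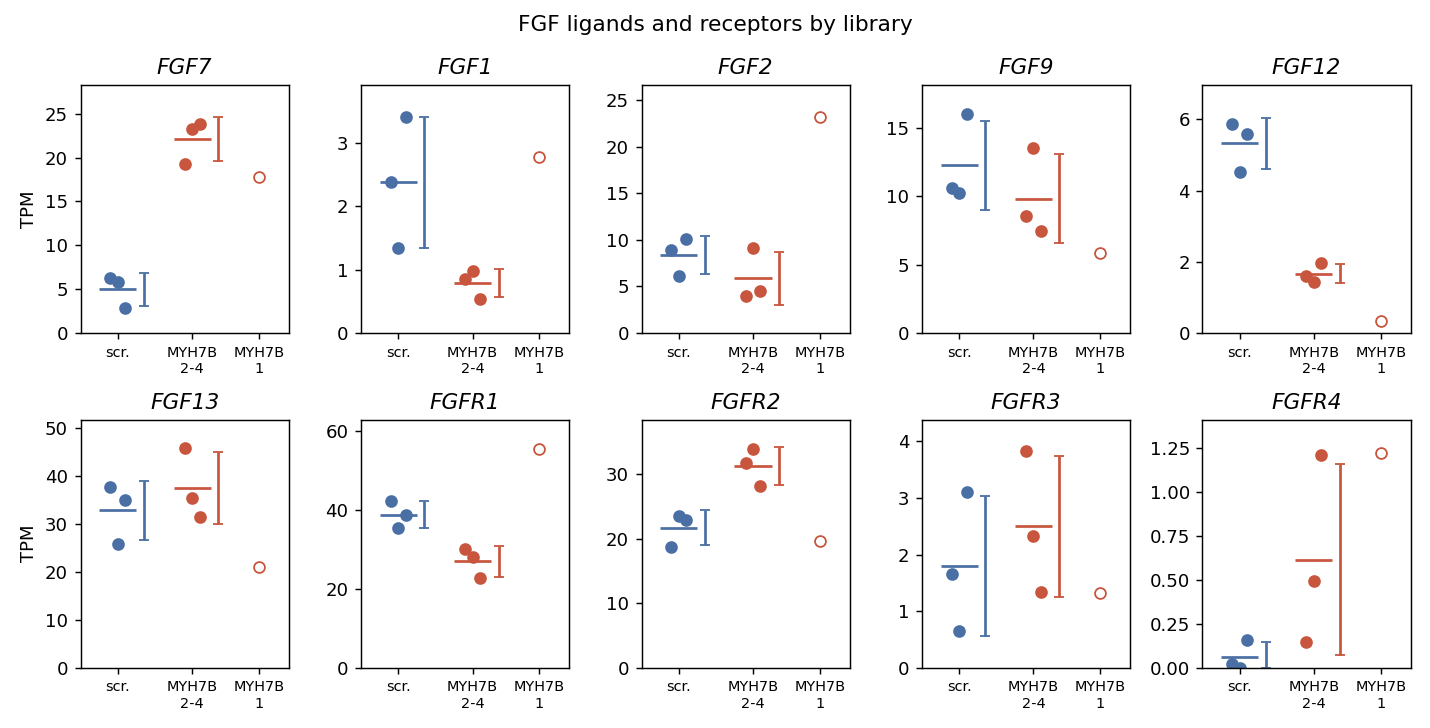
TPM of the 10 genes in each library, with scrambled ASO replicates 1 to 3 in blue, MYH7B ASO replicates 2 to 4 in filled red and the reordered MYH7B ASO replicate 1 as an open circle; horizontal lines are group means over 3 libraries and vertical bars the SD, drawn no lower than 0. FGF7 is high in all MYH7B ASO libraries (17.7 to 23.8 TPM). Replicate 1 lies outside the range of MYH7B ASO replicates 2 to 4 for each of the 10 genes, only just so for FGFR3 and FGFR4.

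The FGF7 pseudogene rows did not follow the same pattern. FGF7P3 had 12.7, 1.95 and 5.46 TPM in the scrambled libraries and 2.04, 3.25 and 3.17 TPM in MYH7B ASO replicates 2 to 4. FGF7P6 had 3.95, 1.87 and 2.96 TPM against 3.66, 6.98 and 0.917 TPM. The groups overlapped for both, with log2 fold changes of -0.76 (limma adjusted p = 0.522) and 0.11 (limma adjusted p = 0.939). The other 6 annotated FGF7 pseudogenes were listed at 0 in all 7 libraries. When FGF7 and its pseudogene rows were added together, the sums were 22.9, 9.59 and 11.3 TPM in the scrambled libraries and 24.9, 33.5 and 27.9 TPM in MYH7B ASO replicates 2 to 4. These groups did not overlap, but the gap narrowed to the distance between 22.9 and 24.9 TPM, and the sum of 18.9 TPM in the reordered replicate 1 lay below scrambled ASO replicate 1. Since TPM are divided by transcript length, and FGF7P3-202 (1707 bases) and FGF7P6-201 (1890 bases) are shorter than FGF7-201, the sum still depends on how shared reads were divided.

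**Figure D2:**
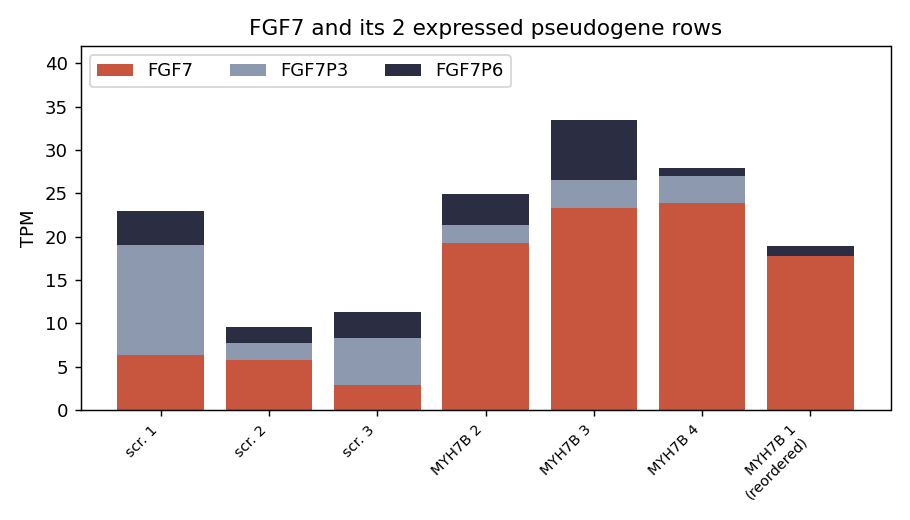
Stacked TPM of FGF7, FGF7P3 and FGF7P6 in each of the 7 libraries. The red FGF7 segment is larger in every MYH7B ASO library (17.7 TPM or more) than in any scrambled one (6.29 TPM or less), while scrambled ASO replicate 1 holds the largest FGF7P3 segment (12.7 TPM).

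Neighbouring genes at the FGF7 locus were not raised with it. FAM227B overlaps FGF7 on the opposite strand, and reads from the shared stretch cannot be told apart unless strand was used, which is not given in the sources used here. Its level was 5.11, 8.91 and 9.20 TPM in the scrambled libraries and 8.21, 9.36 and 4.99 TPM in MYH7B ASO replicates 2 to 4, with a log2 fold change of -0.04 (limma adjusted p = 0.967). GALK2, a galactokinase-family gene that is the nearest tested gene before FGF7, had 10.5, 14.99 and 11.96 TPM against 8.04, 5.40 and 5.93 TPM (log2 fold change -0.86, limma adjusted p = 0.0958). DTWD1, the nearest tested gene after it, had 19.98, 18.3 and 19.5 TPM against 13.1, 12.9 and 14.1 TPM (log2 fold change -0.50, limma adjusted p = 0.153). Both flanking genes were lower in each MYH7B ASO library of the comparison than in each scrambled one, and neither passed the test. The other 4 of the 6 nearest annotated genes were at or near 0 TPM.

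The stretch before the annotated start of FGF7 is AT-rich, and it is shown with that of FGF12, the other member with the clearest difference. Both are from the RefSeq promoter table on GRCh38.p14 and are written 5′ to 3′ on the gene's strand with CG pairs in capitals. Each ends just before a GENCODE 29 exon that begins upstream of the RefSeq start. The FGF7 stretch is chr15:49422992-49423095 on the plus strand and the FGF12 stretch is chr3:192727600-192727791 on the minus strand, before one of its RefSeq starts, which lies inside the FGF12 span because a longer transcript begins upstream.
FGF7: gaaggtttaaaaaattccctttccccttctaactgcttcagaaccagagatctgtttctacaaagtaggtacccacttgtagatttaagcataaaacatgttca
FGF12: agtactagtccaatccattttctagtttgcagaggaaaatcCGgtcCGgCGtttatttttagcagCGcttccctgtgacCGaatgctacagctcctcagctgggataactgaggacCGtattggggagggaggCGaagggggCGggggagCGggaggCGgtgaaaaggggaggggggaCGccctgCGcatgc
The FGF7 stretch has 0 CG pairs in 104 bases and the FGF12 stretch has 12 in 192 bases. Over the full 250 bases before the RefSeq start, which reach into that exon, FGF7 has 2 CG pairs and FGF12 has 14. The median of all promoters in the table is 11. Motifs of TEAD factors (CATTCC), AP-1 (TGANTCA) and GATA factors (AGATAA) and the TATA box (TATAAA) were searched on both strands of the table's windows, which run from 250 bases before a start to 50 after it. None of the 4 was found in the FGF7 window or in either FGF12 window, while 14.03%, 7.71%, 10.33% and 11.53% of 35116 promoters hold them. No match says only that these letters are not in these windows. Of the 10 members, 8 had an entry in the table.

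FGF7 was the most abundant secreted FGF in MYH7B ASO replicates 2 to 4. Among 18 secreted ligands it ranked 5, 4 and 7 by TPM in scrambled ASO replicates 1 to 3, ranked 1 in MYH7B ASO replicates 2 to 4 and ranked 2 in the reordered replicate 1. Its share of all secreted FGF transcripts was 11.8%, 15.3% and 6.09% in the scrambled libraries and 33.9%, 37.3% and 44.8% in MYH7B ASO replicates 2 to 4. The share was 25.3% in the reordered replicate 1, where FGF2 was the more abundant ligand. The ligands other than FGF7 together had 47.1, 32.0 and 44.3 TPM against 37.5, 39.1 and 29.4 TPM, and the groups overlapped. Because FGF7 was picked for its higher level, its rank and share are descriptions of the same difference.

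Among the 9 members other than FGF7, 8 had a mean of at least 1 TPM and were tested, and 1 was called at a limma adjusted p under 0.05, FGF12. Over all 15988 genes tested, 1.66% were called in either direction. With the reordered replicate 1 added, none of these 8 members was called, and 1.07% of 15822 genes were. The groups did not overlap for 4 of the 8, higher for FGFR2 and lower for FGF1, FGF12 and FGFR1, where 21.2% of all tested genes had groups that did not overlap. The same 4 had an unadjusted limma p under 0.05, which 15.2% of all tested genes had. In the authors' deposited table, 4 of the 8 of these members that have an adjusted p-value there were under 0.05, against 8.71% of the 15527 genes with one. That table comes from the same experiment, fitted by another method on counts, and may include MYH7B ASO replicate 1. It is not a separate replication.

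**Figure D3:**
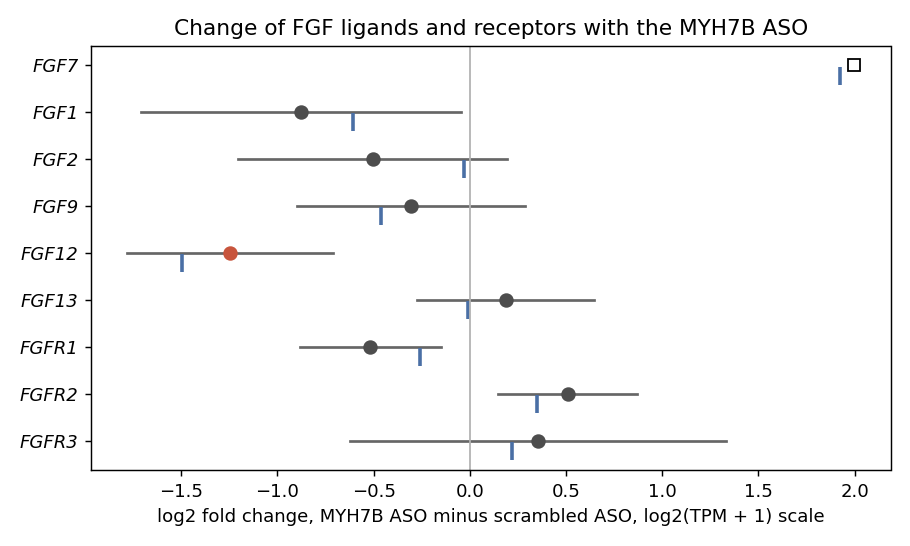
Log2 fold change of each tested gene (MYH7B ASO minus scrambled ASO, log2(TPM + 1) scale) with 95% confidence intervals from limma over 6 libraries; red marks the called gene, the open square marks FGF7, which is not tested, and blue ticks give the value with the reordered MYH7B ASO replicate 1 added. FGF12 lies lowest at -1.25 and moves to -1.50 with 7 libraries, while FGFR1 and FGFR2 move toward 0 (to -0.26 and 0.35).

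The other secreted ligands did not share the FGF7 pattern. FGF1, which binds all FGF receptors, is encoded on the minus strand of chromosome 5, at 142592178 to 142698070. It had 2.38, 1.34 and 3.41 TPM in the scrambled libraries and 0.851, 0.973 and 0.540 TPM in MYH7B ASO replicates 2 to 4. All 3 treated values lay below all 3 controls, but the reordered replicate 1 had 2.78 TPM, inside the control range. Its log2 fold change was -0.88 (SE 0.36, 95% confidence interval -1.71 to -0.05, limma adjusted p = 0.3002), which did not pass over all genes. FGF1 stood at -0.76 in the authors' deposited table, on a shrunken log2 scale (adjusted p-value 0.0324).

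FGF2, the basic FGF on chromosome 4 (122826708 to 122898236, plus strand), had 8.96, 6.15 and 10.1 TPM in the scrambled libraries and 3.92, 9.11 and 4.55 TPM in MYH7B ASO replicates 2 to 4. MYH7B ASO replicate 3 sat among the controls and the reordered replicate 1 was far above every other library at 23.2 TPM. Its log2 fold change was -0.50 (95% confidence interval -1.20 to 0.19, limma adjusted p = 0.486) over 6 libraries and -0.03 over 7. NUDT6 overlaps FGF2 on the opposite strand and had a log2 fold change of -0.24 (limma adjusted p = 0.672). FGF9, a ligand needed for heart growth in the embryo, lies at 21671383 to 21704498 on the plus strand of chromosome 13. It had 10.6, 10.2 and 16.0 TPM against 8.53, 13.5 and 7.45 TPM, with 5.85 TPM in the reordered replicate 1. The groups overlapped, and the log2 fold change was -0.31 (95% confidence interval -0.90 to 0.29, limma adjusted p = 0.616).

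Of the 14 secreted ligands outside the member list, 3 were tested and none was called. FGF18 had 8.65, 7.97 and 6.01 TPM against 14.6, 8.50 and 8.93 TPM (log2 fold change 0.43, limma adjusted p = 0.454). FGF10, the ligand closest to FGF7 in sequence and in receptor use, had 2.24, 4.70 and 4.94 TPM against 6.07, 4.11 and 5.70 TPM (log2 fold change 0.38, limma adjusted p = 0.584). FGF5, named after its values were seen, had 13.2, 1.17 and 3.26 TPM against 2.38, 1.93 and 0.885 TPM (log2 fold change -0.94, limma adjusted p = 0.526). The groups overlapped for all 3, and scrambled ASO replicate 1 held the high FGF5 value. Of the 18 secreted ligands counted in all, 10 were under 1 TPM in each of the 6 libraries.

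FGF12 fell with the MYH7B ASO. It encodes an intracellular FGF homologous factor and lies on the minus strand of chromosome 3, at 192139395 to 192767764. Its level was 5.87, 4.51 and 5.59 TPM in the scrambled libraries and 1.59, 1.44 and 1.96 TPM in MYH7B ASO replicates 2 to 4. The reordered replicate 1 was lower still at 0.329 TPM, so all 4 treated libraries lay below all 3 controls. Controls averaged 5.33 ± 0.719 TPM (SD, n = 3) and the treated libraries averaged 1.66 ± 0.271 TPM (SD, n = 3). This gave a log2 fold change of -1.25 (SE 0.23, 95% confidence interval -1.78 to -0.71, limma adjusted p = 0.0413). The authors' deposited table gives FGF12 a shrunken log2 fold change of -1.01 (adjusted p-value 0.00117). The call held in 4 of 16 other settings and was lost in 12, among them the 7-library fit (log2 fold change -1.50, limma adjusted p = 0.0733) and the omission of any single library (limma adjusted p from 0.0785 to 0.138), while the direction was the same in all 16.

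FGF13, the most abundant member after FGFR1 in the scrambled group and the first in the MYH7B ASO group, also encodes an intracellular factor and lies on the minus strand of chromosome X, at 138614731 to 139222777. It had 37.7, 25.8 and 34.9 TPM in the scrambled libraries and 45.8, 35.3 and 31.4 TPM in MYH7B ASO replicates 2 to 4. The groups overlapped. Its log2 fold change was 0.19 (95% confidence interval -0.27 to 0.65, limma adjusted p = 0.704), and with the reordered replicate 1, at 21.1 TPM, it turned to -0.0087. FGF13-AS1, antisense to it, had a log2 fold change of -0.06 (limma adjusted p = 0.970).

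FGF11, an intracellular factor outside the member list, was higher in each MYH7B ASO library of the comparison. It had 44.6, 49.1 and 48.9 TPM in the scrambled libraries and 72.4, 69.5 and 64.4 TPM in MYH7B ASO replicates 2 to 4. Its log2 fold change was 0.52 (limma adjusted p = 0.0987), which passed only with rescaling by median ratios (limma adjusted p = 0.0434) among the settings tried, and the reordered replicate 1 had 34.3 TPM, below the controls. The authors' deposited table gives FGF11 a shrunken log2 fold change of 0.56 (adjusted p-value 5.11e-04). FGF12 made up 6.66%, 5.61% and 6.26% of the summed FGF11 to FGF14 transcripts in the scrambled libraries. In MYH7B ASO replicates 2 to 4 it made up 1.33%, 1.35% and 2.01%, and 0.590% in the reordered replicate 1, so the share was lower in every treated library.

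The receptors with appreciable levels were FGFR1 and FGFR2, and they differed in opposite directions in the 6 libraries. FGFR1, the main FGF receptor of heart muscle, spans 38400215 to 38468834 on the minus strand of chromosome 8. It had 42.3, 35.4 and 38.7 TPM in the scrambled libraries and 30.2, 27.9 and 22.7 TPM in MYH7B ASO replicates 2 to 4. The groups did not overlap, but the reordered replicate 1 had 55.4 TPM, above every control. The log2 fold change was -0.52 (SE 0.16, 95% confidence interval -0.88 to -0.15, limma adjusted p = 0.177) over 6 libraries and -0.26 (limma adjusted p = 0.699) over 7. FGFR1 stood at -0.43 in the authors' deposited table (adjusted p-value 0.0356).

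FGFR2, the receptor gene whose epithelial splice form binds FGF7, spans 121478334 to 121598458 on the minus strand of chromosome 10. It had 18.6, 23.6 and 22.8 TPM in the scrambled libraries and 31.8, 33.8 and 28.1 TPM in MYH7B ASO replicates 2 to 4. Again the groups did not overlap, and again the reordered replicate 1 went the other way, with 19.5 TPM inside the control range. The log2 fold change was 0.51 (SE 0.16, 95% confidence interval 0.15 to 0.87, limma adjusted p = 0.177) over 6 libraries and 0.35 (limma adjusted p = 0.508) over 7. FGFR2 stood at 0.53 in the authors' deposited table (adjusted p-value 0.0123). The table is summed by gene, so the splice forms that do and do not bind FGF7 cannot be told apart.

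FGFR3 and FGFR4 were low. FGFR3 (chromosome 4, 1793293 to 1808872, plus strand) had 1.67, 0.644 and 3.11 TPM in the scrambled libraries and 3.82, 2.33 and 1.34 TPM in MYH7B ASO replicates 2 to 4, with overlapping groups (log2 fold change 0.35, 95% confidence interval -0.62 to 1.33, limma adjusted p = 0.738). FGFR4 (chromosome 5, 177086886 to 177098144, plus strand) had 0.0243, 0 and 0.160 TPM against 0.147, 0.492 and 1.21 TPM. Its mean was under 1 TPM and it was not tested.

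The summed level of the 4 receptors overlapped between the groups, at 62.6, 59.6 and 64.8 TPM in the scrambled libraries and 65.9, 64.6 and 53.3 TPM in MYH7B ASO replicates 2 to 4. Its make-up differed. FGFR1 took 67.5%, 59.4% and 59.7% of the sum in the scrambled libraries and 45.8%, 43.2% and 42.5% in MYH7B ASO replicates 2 to 4. The ratio of FGFR2 to FGFR1 was 0.441, 0.666 and 0.591 against 1.05, 1.21 and 1.24, so FGFR2 was the more abundant receptor only in these 3 treated libraries. In the reordered replicate 1 the ratio was 0.353, the lowest of all 7, and the groups then overlapped. A permutation test of 3 against 3 libraries cannot go below p = 0.1, and none is given for this ratio.

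**Figure D4:**
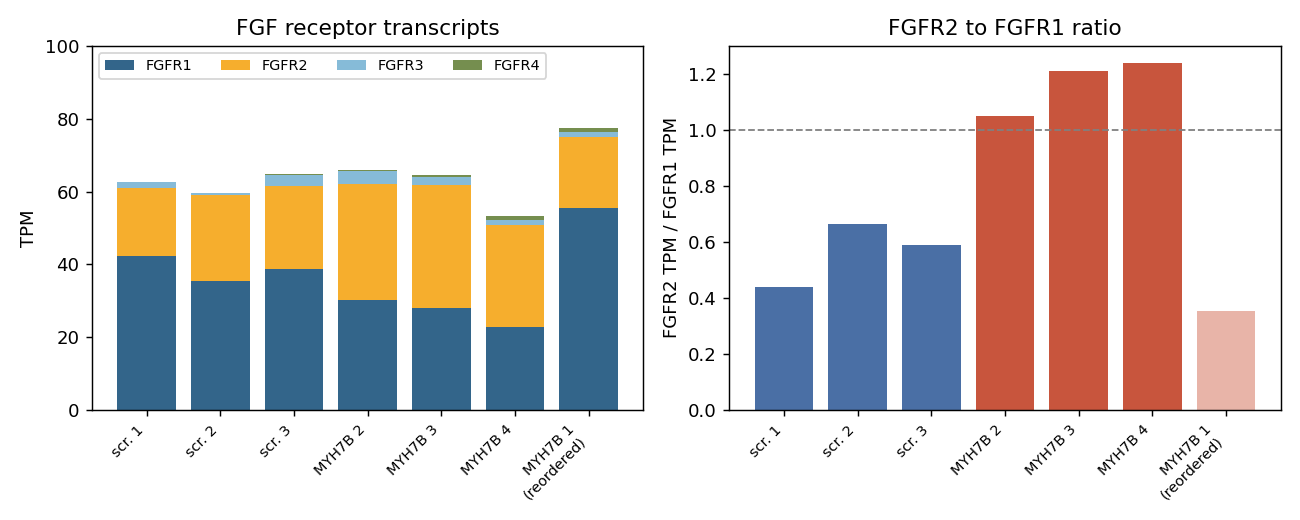
Left, stacked TPM of FGFR1 to FGFR4 in each library; right, FGFR2 TPM divided by FGFR1 TPM, with a dashed line at 1. MYH7B ASO replicates 2 to 4 lie above 1 (1.05 to 1.24), the scrambled libraries lie below it (0.441 to 0.666), and the reordered MYH7B ASO replicate 1 is lowest at 0.353.

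Ordered by mean level, the scrambled group ran from FGFR1 (38.8 TPM), FGF13 (32.8), FGFR2 (21.7), FGF9 (12.3), FGF2 (8.40), FGF12 (5.33), FGF7 (4.98), FGF1 (2.38) and FGFR3 (1.81) to FGFR4 (0.0616 TPM). Neighbours were taken as apart where the gap between means exceeded the sum of their SDs. By that measure FGFR1 and FGF13 were not apart, nor were FGF9 and FGF2, nor any neighbours from FGF12 through FGFR3. In the MYH7B ASO group FGF7, at 22.1 TPM, ranked 4, after FGF13 (37.5 TPM), FGFR2 (31.2) and FGFR1 (26.9), with no gap between these 4 neighbours beyond their SDs. It was apart from FGF9, next at 9.83 TPM.

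The genes most like FGF7 over the 6 libraries, by Pearson correlation of log2(TPM + 1), were TMEM63B (0.98) and TWIST1, CCDC28B, FAM222A and TMEM200B (each 0.97). All 5 were higher in each MYH7B ASO library of the comparison than in each control. TWIST1, a mesenchymal transcription factor, had 6.13, 5.34 and 5.29 TPM against 8.28, 8.40 and 8.58 TPM. For FGF12 the closest were DTWD1, TBL1X and GTDC1 (0.9998, 0.998 and 0.998). These genes were selected for likeness over libraries that share the group difference, so the coefficients are descriptions.

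Genes of the FGF pathway were described in 9 lists with 117 genes, of which 80 were tested. None was called higher and 2 were called lower, SULF1 and NDST1, where 0.181% and 1.48% of all tested genes were called in these directions. The groups did not overlap for 7 higher and 15 lower genes, against 7.11% and 14.1% of all tested genes. The median log2 fold change of the 80 was -0.13, beside -0.04 over all tested genes.

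Both called genes act on heparan sulfate, the sugar chain that holds FGFs at the cell surface. SULF1, an extracellular enzyme that removes sulfate groups from the chains, had 110, 95.8 and 198 TPM in the scrambled libraries and 25.9, 51.5 and 32.4 TPM in MYH7B ASO replicates 2 to 4. The groups were well apart, but the reordered replicate 1, at 107 TPM, lay within the control range. SULF1 fell by 1.83 on the log2 scale (limma adjusted p = 0.0323), and with 7 libraries it had a log2 fold change of -1.44 (limma adjusted p = 0.212). NDST1, which starts the sulfation of the chains, had 24.5, 24.1 and 19.4 TPM against 10.7, 11.7 and 8.89 TPM, with 18.5 TPM in the reordered replicate 1. NDST1 fell by 1.05 on the log2 scale (limma adjusted p = 0.0285), and with 7 libraries its log2 fold change was -0.86 (limma adjusted p = 0.167). In the authors' deposited table, from the same experiment, SULF1 stood at -1.41 (adjusted p-value 9.64e-10) and NDST1 at -0.94 (adjusted p-value 3.93e-07). Single libraries decided the limma calls. The SULF1 call was lost without scrambled ASO replicate 1 or 3 or without MYH7B ASO replicate 2 or 4 (limma adjusted p between 0.0637 and 0.147), and the NDST1 call was lost without any single library other than scrambled ASO replicate 3 (limma adjusted p from 0.0674 to 0.124).

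Of the 22 enzymes that build or edit heparan sulfate, 13 were tested, 2 were called and all 13 had log2 fold changes below 0, with a median of -0.24. Groups did not overlap for 4 of them, all lower. Over all 15988 tested genes 1.48% were called lower, 14.1% were lower without overlap and 8767 had log2 fold changes below 0. The smallest of the 13 changes were close to 0, as for HS2ST1 (-0.01) and HS6ST1 (-0.03). With the reordered replicate 1 added, HS6ST1 (0.34), NDST2 (0.21) and SULF2 (0.04) were above 0, so the shared direction holds only for the 6 libraries. SULF2, the close relative of SULF1, had 77.4, 59.9 and 92.9 TPM against 43.7, 79.6 and 60.3 TPM (log2 fold change -0.34, limma adjusted p = 0.564), with overlapping groups. The SULF1 to SULF2 ratio was 1.42, 1.60 and 2.13 in the scrambled libraries and 0.592, 0.647 and 0.537 in MYH7B ASO replicates 2 to 4. It was 0.622 in the reordered replicate 1, so all 4 treated libraries had a lower ratio than all 3 controls. In replicate 1 this came with a high SULF2 level, 172 TPM and above every control. SULF1, at 107 TPM, lay within its control range there.

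No gene of the remaining lists was called. Among 13 co-receptors and FGF-binding proteins 8 were tested, with a median log2 fold change of -0.29. The adhesion molecules NCAM1 (164, 209 and 165 TPM against 148, 154 and 129 TPM, limma adjusted p = 0.365) and CDH2 (115, 133 and 139 TPM against 142, 128 and 114 TPM, limma adjusted p = 0.974) were the most abundant. All 13 receptor adaptors were tested, with a median of -0.24, and their most abundant members SHC1 and GRB2 had log2 fold changes of 0.22 (limma adjusted p = 0.558) and 0.30 (limma adjusted p = 0.391). Groups did not overlap for 4 lower adaptors and 1 higher, against 14.1% and 7.11% of all tested genes. GAB1, named after its values were seen, was at -0.93 (limma adjusted p = 0.0986). In the authors' deposited table it stood at -0.77 (adjusted p-value 0.00284). The 18 relay genes had a median of -0.05, with MAP2K2, a kinase that activates ERK, at -0.38 (limma adjusted p = 0.238) and STAT3 at -0.32 (limma adjusted p = 0.343).

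Genes that report on pathway output were mixed. Of 12 feedback inhibitors 11 were tested, with a median of -0.02. SPRY1 had 55.3, 30.1 and 47.1 TPM against 39.1, 46.0 and 29.8 TPM (log2 fold change -0.18, limma adjusted p = 0.776), and SPRY2 had 10.2, 15.3 and 17.2 TPM against 17.8, 18.9 and 18.1 TPM (log2 fold change 0.37, limma adjusted p = 0.443). Of 14 transcription targets 12 were tested, with a median of 0.27, 3 genes higher and 1 lower without overlap, beside 7.11% and 14.1% of all tested genes. The 3 higher genes, named after their values were seen, were ETV1 (log2 fold change 0.81, limma adjusted p = 0.126), SPHK1 (0.76, limma adjusted p = 0.287) and FOS (0.47, limma adjusted p = 0.298), and the lower one was MYC (-0.84, limma adjusted p = 0.148). CCND1, a cyclin and the most abundant gene of the list, had a log2 fold change of -0.20 (limma adjusted p = 0.558) and PHLDA1 of -0.13 (limma adjusted p = 0.807).

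**Figure D5:**
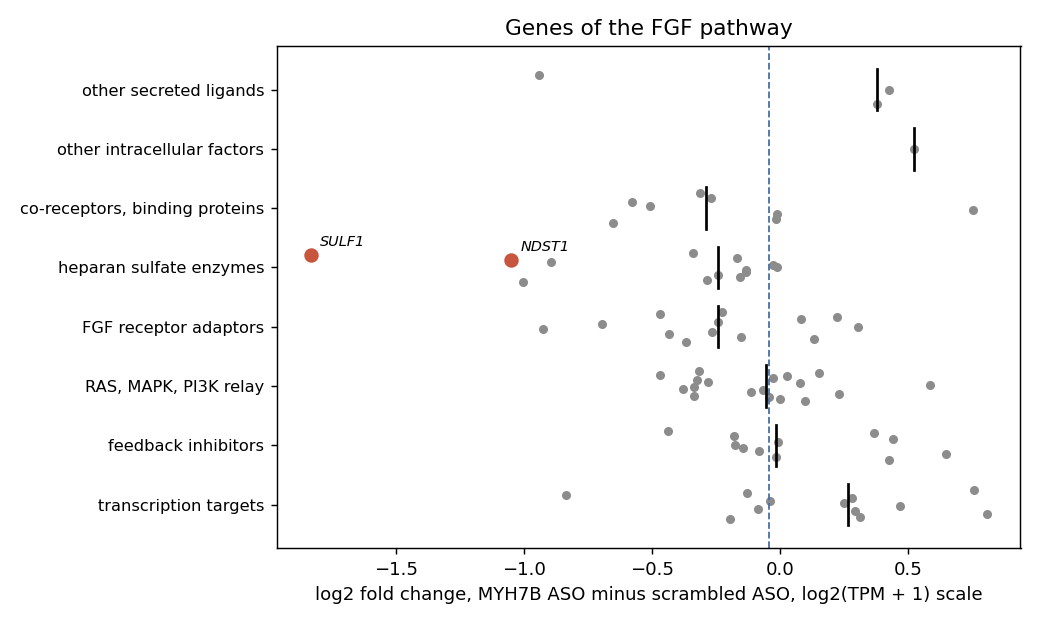
Log2 fold change (MYH7B ASO minus scrambled ASO, log2(TPM + 1) scale, 6 libraries) of the tested genes of 8 pathway lists; grey dots are genes not called, red dots the 2 called ones, black bars the list medians and the dashed line the median of all tested genes (-0.04). Over these 6 libraries all 13 tested heparan sulfate enzymes lie below 0, some only just, with SULF1 (-1.83) and NDST1 (-1.05) called.

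Markers of other cell types differed between the groups as well. The summed TPM of 10 fibroblast and mesenchymal markers was 2946 to 5324.5 in the scrambled libraries and 1404 to 2157 in MYH7B ASO replicates 2 to 4, with LUM and COL1A2 called lower, and 4236 in the reordered replicate 1. Collagens made up most of this sum, and the 10 markers did not move as one: 5 were lower without overlap, 3 overlapped, and 2, named after their values were seen, were higher without overlap. These were PDGFRA (19.8, 27.8 and 23.5 TPM against 41.1, 32.9 and 34.8 TPM, log2 fold change 0.60, limma adjusted p = 0.152) and TCF21 (7.40, 7.53 and 10.3 TPM against 12.1, 18.4 and 12.8 TPM, log2 fold change 0.71, limma adjusted p = 0.168). Of all tested genes, 14.1% were lower and 7.11% higher without overlap, and 1.48% were called lower. The 6 smooth muscle markers summed to 1006 to 1412 TPM against 592 to 792 TPM, with MYH11 called lower, and to 1231 TPM in the reordered replicate 1. Over the 6 libraries FGF7, like PDGFRA and TCF21, was higher where these sums were lower. FGF1, FGF12, FGFR1, SULF1 and NDST1 were lower together with them. In the reordered replicate 1 both sums lay within the control range. There FGF7 (17.7 TPM), TCF21 (17.5 TPM) and FGF12 (0.329 TPM) stayed on the side of the other treated libraries. PDGFRA (26.5 TPM), FGF1 (2.78 TPM) and SULF1 (107 TPM) lay within their control ranges. FGFR1 (55.4 TPM) lay above its control range and NDST1 (18.5 TPM) just below. In bulk RNA fewer cells of a type and less RNA per cell cannot be told apart. The 8 epithelial markers summed to 1921 to 2254 TPM against 2215 to 2694 TPM, mostly keratins, and none was called. The 7 endothelial markers summed to 12.1 to 22.3 TPM over the 6 libraries, and none of the listed markers was at 0 in all 6. The part of these cell types in the FGF values was not tested.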

How the data were processed

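The authors deposited 1 table of TPM per gene and library and 1 comparison table whose columns are a mean signal (normalized count), log2 fold changes, standard errors, a test score, p-values and adjusted p-values. Per the file's name, these fold changes are shrunken. The submitters' processing notes name GRCh38.p13 and DESeq2, and the quantifier and annotation are not given in the sources used here. Here log2(TPM + 1) values of 6 libraries were fitted with limma 3.58.1 in R 4.3.3 (lmFit, eBayes with intensity trend, no covariate) for genes that averaged 1 TPM or more. P-values were adjusted by Benjamini-Hochberg over all tested genes and called under 0.05. The scale understates changes of low genes. The fit was tested on simulated data. Positions are those of GENCODE 29, and sequences come from its transcripts and from RefSeq. FGF7 transcripts were aligned to its pseudogene transcripts. The members, lists and named genes (list members that were called, otherwise the 2 with the highest mean TPM; genes at the FGF7 locus; the genes most like FGF7 and FGF12) were chosen with earlier results of these data known. Alternatives were other pseudocounts (0.1 and 5), filters, rescaling, variance settings, 7 libraries, replicate blocks and leaving out each library. The result of 1 of the 9 pathway lists is not reported here.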

Additional observations from a re-analysis of the deposited data

Results flagged for a closer look

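In 2 of 25 measures examined over the 4 MYH7B ASO libraries, 1 library lay far from the others by Dixon's criterion, which chance meets in about 1 in 20 groups. FGFR1 made up 71.5% of the 4 FGF receptors' TPM in the reordered MYH7B ASO replicate 1, against 42.5% to 45.8% in replicates 2 to 4. FGFR2 made up 25.2% in that library, against 48.2% to 52.7%. These are shares of the same sum, so the 2 measures are not separate. Many of the 25 measures also use the same genes, so their count cannot be set against the rate of 1 in 20. Both values come from the column that had to be reordered, and the part of the reordering in them was not tested.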

How the results depend on the processing

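Of the members' log2 fold changes, that of FGF13 changed sign, from 0.19 to -0.0087 with the reordered replicate 1 added. FGF7 was higher in all settings, at 1.46 with a pseudocount of 5 and 1.71 to 2.17 with any single library left out. The count of called genes, 265, became 40 with no filter on low values, 150 with no intensity trend, 170 with 7 libraries (167 in both) and 53 to 149 with 1 library left out. The 2 called pathway genes became 0 with no filter, with no intensity trend and with 7 libraries, and 0 to 1 with 1 library left out. MYH7B missed the threshold with no filter (log2 fold change -1.85, limma adjusted p = 0.0779) and with 7 libraries (-2.30, limma adjusted p = 0.0525), and ranged from -2.04 to -1.66 with 1 library left out. The replicate block by title number gave 0 called genes and 0 pathway genes (1718 genes at an unadjusted limma p under 0.05) and -1.92 for MYH7B. The replicate block by description number gave 0 and 0 (1096 genes) and -2.17 for MYH7B. Either numbering forms only 2 pairs, and a library alone in its block adds nothing to the comparison. These fits therefore have little power to call genes. Deviations of same-numbered libraries correlated at 0.076 and 0.11 by title and at -0.073 and -0.039 by description. Pairs of libraries with different title numbers ran from -0.073 to 0.041. So few pairs cannot show whether same-numbered libraries shared a batch. FGF1 and FGF12 were not tested with a minimum mean of 5 TPM, nor was FGFR3. Removal of mitochondrially encoded genes rescaled every level, FGF7 to 7.33 and 32.8 TPM. Depth is unknown, and 3 libraries a group limit the precision.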
